A study of Mus musculus with 4 samples.

Results

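Genes that mark intestinal stem cells or respond to Wnt signalling in the crypt, 10 in number, were followed in mouse colon: Lgr5, Ascl2, Smoc2, Prom1, Axin2, Rnf43, Znrf3, Sox9, Ephb2 and Ephb3. They were chosen by gene symbol from the authors' deposited table of comparisons, and 10 of the 10 were found, each with 1 probe set, among 30861 gene symbols and 32202 named probe sets. The samples were whole colon RNA of Balb/c mice on GeneChip Mouse Gene 2.0 ST arrays. The control group (2 arrays, called control 1 and control 2) had plain drinking water and the other group (2 arrays, maltodextrin 3 and maltodextrin 4) drinking water with 5% maltodextrin, a glucose polymer made from starch and added to processed foods, both for 45 days. No genotype or other treatment is given for either group, and the labels used here state neither age, sex and gut segment nor whether separate mice gave the arrays of 1 group, so every p-value measures only the spread between these arrays, which may be technical.

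The colonic epithelium is renewed from stem cells at the base of the crypt, which are kept there by Wnt ligands and R-spondins from neighbouring cells. Wnt binding to Frizzled and LRP receptors stabilises beta-catenin, which with TCF factors switches on target genes, several of which (Axin2, Rnf43, Znrf3) then dampen the signal. The receptors EphB2 and EphB3 are also targets of the pathway and sort cells along the crypt axis through repulsion by ephrin-B ligands.

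Values are log2 intensities as the authors deposited them, and each difference is maltodextrin minus control on that scale. All 32202 named probe sets were fitted together with limma, and none passed an adjusted p of 0.05 (smallest adjusted p = 0.191, with 4698 probe sets at an unadjusted p under 0.05). A difference of 1.5-fold or more at an unadjusted p below 0.05 therefore serves as a nominal criterion and is named so throughout. It was met by 8.51% of all named probe sets as higher and by 3.56% as lower. The 10 genes were brighter than most of the array, with mean log2 intensities between the 65.7th and the 95.9th percentile, against a 95th percentile of 5.03 for 1265 olfactory, vomeronasal and taste receptor probe sets used as a guide to background. Epithelial genes were well measured: 12 of 12 pan-epithelial markers were above that level, with list medians from 11.15 to 11.32 per array. These markers are not particular to colon, so the colon label was not tested by them. In bulk tissue, fewer cells of a type and less RNA per cell cannot be told apart.

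The 10 genes were all on the higher side in the maltodextrin group as deposited, with differences from 0.01 to 1.03 and a median of 0.43. Of all named probe sets 46% had a difference above 0, and of those whose mean log2 was 5 or more 62.3%. When quantile normalization was applied again, 4 of the 10 genes (Ascl2, Axin2, Ephb3 and Rnf43) turned to the lower side. The median over all named probe sets was -0.04, and 0.14 over those whose mean log2 was 5 or more. In 8 of the 10 genes both maltodextrin arrays lay above both controls, in 2 the groups overlapped, and in none did both lie below (24.7% of all named probe sets). Both arrays lay above in 25.6% of all named probe sets and in 39.9% of those whose mean log2 was 5 or more. The gap between the groups was under 0.15 in 4 of the 8, and at its narrowest 0.01. Only Prom1 and Ephb2 met the nominal criterion, 2 of 10 against 8.51% of all named probe sets and 14% of those whose mean log2 was 5 or more (as it was for all 10 genes), and no gene of the 10 passed over all probe sets (limma adjusted p from 0.301 to 0.986). By the methods' t-test, the equal-variance test behind the deposited p-values, and in the authors' deposited list of 1677 probe sets, the count was 0.

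**Figure D1:**
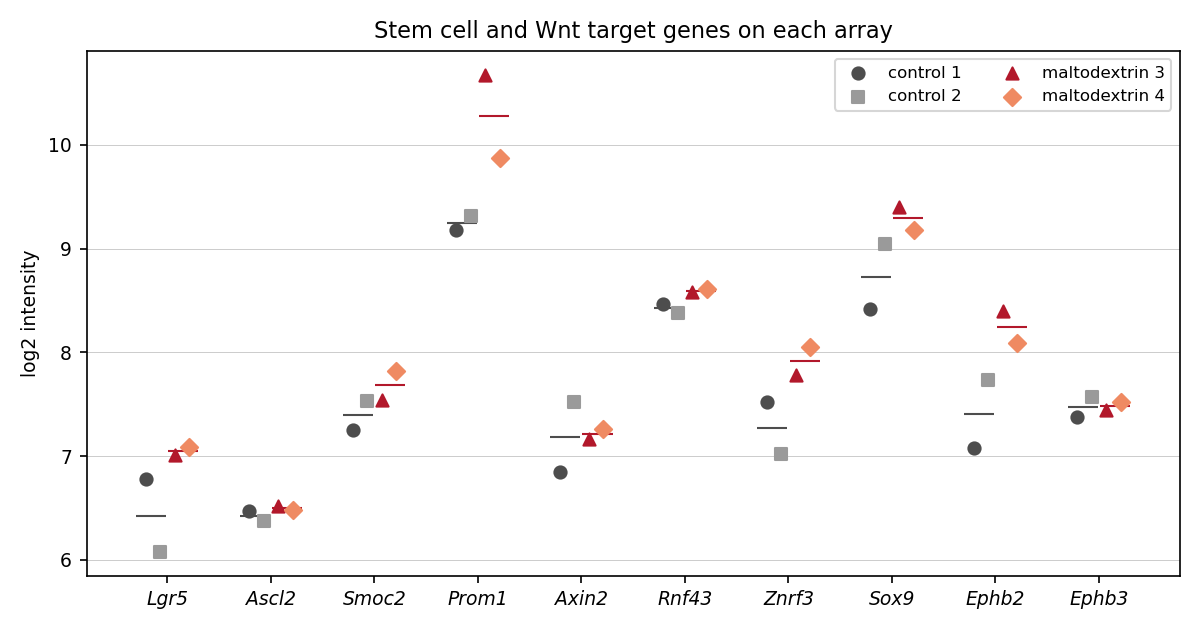
The plot of log2 intensity by array shows the 10 genes along the horizontal axis, with 1 symbol for each of the 4 arrays and short lines at the 2 group means. The maltodextrin symbols lie above both controls in 8 genes, widely in Prom1 (gap 0.56) and by 0.01 in Ascl2 and Smoc2, and they lie between the controls in Axin2 and Ephb3.

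Lgr5, a receptor for R-spondins and the defining marker of crypt base columnar stem cells, differed with 1 control array standing apart. Its probe set is transcript cluster 17245059, and the protein-coding gene spans 115450314 to 115587780 of chromosome 10 (GRCm38.p6, as for all positions given). It read 6.78 on control 1, 6.08 on control 2, 7.01 on maltodextrin 3 and 7.08 on maltodextrin 4. Both maltodextrin arrays were above both controls and nearly equal, while control 2 stood well below control 1. The group means were 6.43 ± 0.49 (SD, n = 2) and 7.05 ± 0.05 (SD, n = 2), a 1.54-fold difference of 0.62 (SE 0.28, limma adjusted p = 0.398). Its size turned on control 2: without that array the difference was 0.27, and without control 1 it was 0.97.

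Ascl2, a basic helix-loop-helix transcription factor that maintains the stem cell programme, hardly differed. It read 6.47 and 6.37 on the controls and 6.52 and 6.48 on maltodextrin 3 and maltodextrin 4. Its 4 arrays spanned less than those of any other of the 10 genes, and the groups were apart by 0.01 only. The difference was 0.08 (95% interval from -0.37 to 0.53 by limma), and -0.02 with quantile normalization applied again. Ascl2 (17498188) lies on chromosome 7 from 142966822 to 142969264.

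Smoc2 encodes a secreted calcium-binding matrix protein that is enriched in Lgr5-positive cells. Its levels were 7.25 on control 1, 7.53 on control 2, 7.54 on maltodextrin 3 and 7.82 on maltodextrin 4. Control 2 and maltodextrin 3 were all but equal, so that the groups touched without overlapping. The difference of 0.29 (SE 0.21, limma adjusted p = 0.547) was about as large as the gap within each group, 0.28 in both. Smoc2 (17333465) lies on chromosome 17 from 14279490 to 14404790.

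Prom1 showed the largest difference of the 10. It encodes prominin-1 (CD133), a membrane glycoprotein of cell protrusions that is found in stem cells and more widely in the epithelium. It read 9.18 on control 1, 9.31 on control 2, 10.68 on maltodextrin 3 and 9.88 on maltodextrin 4. The controls were close together, maltodextrin 3 stood far above them and maltodextrin 4 lay between. The means of 9.25 ± 0.09 (SD, n = 2) and 10.28 ± 0.57 (SD, n = 2) differ 2.04-fold, by 1.03 (SE 0.31, limma unadjusted p = 0.025, adjusted p = 0.301). Of all named probe sets, 3.24% had a larger difference. Without maltodextrin 3 the difference was 0.63 and without control 1 it was 0.96, both short of the nominal criterion, and without maltodextrin 4 it was 1.43. Prom1 (17447835) lies on chromosome 5 from 43993621 to 44102047.

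The negative regulators of the Wnt signal gave unlike values. Axin2 is a scaffold of the beta-catenin destruction complex and a widely used readout of Wnt activity. It read 6.85 on control 1, 7.52 on control 2, 7.17 on maltodextrin 3 and 7.26 on maltodextrin 4. Both maltodextrin arrays lay between the controls, which were 0.67 apart. The difference was 0.03 (95% interval from -0.70 to 0.76 by limma), and its sign depended on which control was kept, at -0.30 without control 1 and 0.37 without control 2. Axin2 (17257801) lies on chromosome 11 from 108917828 to 108950783.

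Rnf43 and Znrf3 are related transmembrane ubiquitin ligases that remove Frizzled receptors from the cell surface and are themselves cleared when R-spondin binds an Lgr receptor. Rnf43 read 8.47 on control 1, 8.38 on control 2, 8.58 on maltodextrin 3 and 8.61 on maltodextrin 4. The groups were apart, with the smallest spread between arrays of a group among the 10 genes, and the difference was 0.17 (SE 0.17, limma adjusted p = 0.656). It was 0.13 to 0.21 with 1 array left out, but -0.02 with quantile normalization applied again. Znrf3 was 7.52 on control 1, 7.02 on control 2, 7.78 on maltodextrin 3 and 8.05 on maltodextrin 4. Its difference of 0.64 (SE 0.25, 1.56-fold, limma unadjusted p = 0.0536, adjusted p = 0.347) lay just outside the nominal criterion. It was 0.39 without control 2 and 0.89 without control 1. Rnf43 (17254809) lies on chromosome 11 from 87663087 to 87735539 and Znrf3 (17260150) on the same chromosome from 5276329 to 5444847.

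Lgr5 and Znrf3 were both lowest on control 2, and so were Ascl2 and Rnf43, with differences of 0.08 and 0.17. The median of 16 proliferation genes was also lowest there. It was 8.13 on control 1, 7.41 on control 2, 8.07 on maltodextrin 3 and 7.97 on maltodextrin 4. Both maltodextrin arrays lay above both controls in 7 of the 16 and below in 2, Mki67 (-0.25) and Top2a (-0.34). Such shares were 25.6% and 24.7% of all named probe sets, and 39.9% and 16.2% of those whose mean log2 was 5 or more. The proliferation list had a median difference of 0.34, with 0 of 16 genes at the nominal criterion. It was 0.04 without control 2 and 0.47 without control 1, where 7 of 16 genes were higher at the criterion (12% of all named probe sets in that setting). Control 2 also carried pancreatic acinar transcripts: the summed linear intensity of 9 acinar markers was 10160 there against 1107 on control 1, 1118 on maltodextrin 3 and 2674 on maltodextrin 4, and none of the 9 lay below the receptor level on control 2, against 4 on control 1, 3 on maltodextrin 3 and 4 on maltodextrin 4. The part of either in the Lgr5 and Znrf3 differences was not tested.

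Sox9 is an HMG-box transcription factor and Wnt target of the crypt base. It read 8.42 on control 1, 9.04 on control 2, 9.40 on maltodextrin 3 and 9.18 on maltodextrin 4. The groups did not overlap, but control 2 was closer to maltodextrin 4 than to control 1. The difference was 0.56 (SE 0.28, 1.47-fold, limma adjusted p = 0.415), or 0.25 without control 1 and 0.87 without control 2. Sox9 (17257946) lies on chromosome 11 from 112782210 to 112787757.

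The EphB receptors had unlike differences. Ephb2 read 7.08 on control 1, 7.74 on control 2, 8.40 on maltodextrin 3 and 8.09 on maltodextrin 4. Both maltodextrin arrays were above both controls by at least 0.36, and the means of 7.41 ± 0.47 (SD, n = 2) and 8.25 ± 0.22 (SD, n = 2) differed 1.79-fold, by 0.84 (SE 0.29, limma unadjusted p = 0.0381, adjusted p = 0.320). Of all named probe sets, 5.5% had a larger difference. Ephb3 read 7.38 and 7.57 on the controls, with 7.44 and 7.52 on the maltodextrin arrays between them. Its difference was 0.01 (95% interval from -0.47 to 0.48 by limma), the smallest of the 10. The Ephb2 difference was 0.51 without control 1, 0.69 without maltodextrin 3 and 0.99 without maltodextrin 4, each short of the nominal criterion, and 1.17 without control 2. Ephb2 minus Ephb3, taken within each array, differed between the groups by 0.83 (two-sided exact permutation test over the arrays, p = 0.333, the smallest that 2 arrays against 2 can give), a pair compared after its values were seen. Ephb2 (17431588) lies on chromosome 4 from 136647536 to 136836326 and Ephb3 (17324163) on chromosome 16 from 21204620 to 21223309.

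The sequences before 1 annotated transcript start of each of the 2 genes at the nominal criterion, Prom1 and Ephb2, and of Ephb3 as the paralogue with the smallest difference, are printed so that the regions can be compared. In all 3 the widest annotated span of the gene, given above, begins farther upstream, so that the stretches of Prom1 and Ephb2 lie inside that span and most of that of Ephb3 does. Each is 250 bases from RefSeq on GRCm38.p6, 5′ to 3′ on the gene's strand, at chr5:44101737-44101986 (minus strand), chr4:136836013-136836262 (minus strand) and chr16:21204545-21204794 (plus strand). Capitals mark the E-box CAGCTG and the GC box GGGCGG on either strand.
Prom1: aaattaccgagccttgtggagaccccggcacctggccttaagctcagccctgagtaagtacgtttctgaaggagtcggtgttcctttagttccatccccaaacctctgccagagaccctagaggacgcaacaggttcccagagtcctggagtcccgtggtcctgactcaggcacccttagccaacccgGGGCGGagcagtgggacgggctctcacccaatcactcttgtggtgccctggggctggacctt
Ephb2: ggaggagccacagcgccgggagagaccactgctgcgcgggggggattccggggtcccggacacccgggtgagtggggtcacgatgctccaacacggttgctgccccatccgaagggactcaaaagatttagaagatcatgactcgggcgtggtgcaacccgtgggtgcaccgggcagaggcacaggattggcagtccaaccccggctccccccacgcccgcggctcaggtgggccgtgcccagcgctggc
Ephb3: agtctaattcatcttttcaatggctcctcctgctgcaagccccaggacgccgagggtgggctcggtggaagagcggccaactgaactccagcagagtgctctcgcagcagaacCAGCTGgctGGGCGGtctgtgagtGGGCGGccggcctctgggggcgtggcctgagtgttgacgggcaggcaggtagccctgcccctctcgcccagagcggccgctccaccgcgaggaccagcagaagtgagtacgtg

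The TCF/LEF consensus was searched as 4 words, CTTTGAA or CTTTGAT or CTTTGTA or CTTTGTT, on both strands of windows from 250 bases before to 50 after the start. The RefSeq table held 8 windows for 6 of the 10 genes (Prom1, Ephb2, Ephb3, Ascl2, Axin2 and Rnf43), and 0 of the 8 contained any of the words, against 16.9% of all 32851 windows. The E-box CAGCTG, a word bound by basic helix-loop-helix factors, was in 1 of the 8 windows, that of Ephb3, against 16.3% of all. The GC box was in 4 of the 8, those of Prom1, Ascl2, Axin2 and Ephb3, against 35.7% of all. In the windows of Prom1 and Ephb2, the members at the nominal criterion, the single marked word was the GC box of Prom1. These are matches of letters within 300 bases.

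The spread between arrays set the limits of these differences. In 9 of the 10 genes the controls were farther apart than the maltodextrin arrays, the exception being Prom1, against 66.5% of all named probe sets. The median gap between the controls was 0.39 and that between the maltodextrin arrays 0.16, where the medians of all named probe sets were 0.32 and 0.17. In 5 of the 10 genes the difference between groups was smaller than the gap between the controls, a count not made over all named probe sets. The controls disagreed in both directions: control 1 was the lower in 6 genes (Smoc2, Prom1, Axin2, Sox9, Ephb2 and Ephb3) and control 2 in 4 (Lgr5, Ascl2, Rnf43 and Znrf3). Of all named probe sets, control 1 was the lower in 42.9%. Without control 1 the median of the 10 differences was 0.23, and without control 2 it was 0.38.

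**Figure D2:**
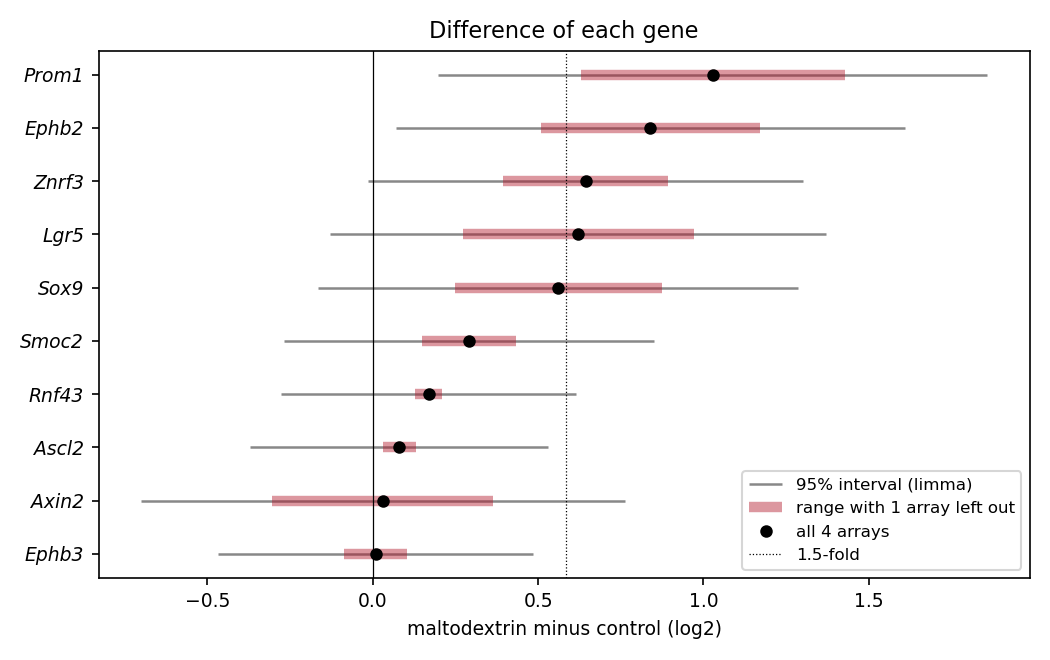
The plot of differences gives for each gene the maltodextrin minus control difference in log2 units as a point, its 95% interval from limma as a thin line, the range with 1 array left out as a thick line and the 1.5-fold mark as a dotted line. The interval lies above 0 for Prom1 and Ephb2, and the leave-one-out range crosses 0 for Axin2 and Ephb3.

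The scale of the arrays also mattered. With quantile normalization applied again the median of the 10 was 0.25, both maltodextrin arrays were above both controls in 4 genes (25.5% of all named probe sets in that setting), and Prom1 alone met the nominal criterion (6.38% of all named probe sets as higher). With the arrays centred on their own medians or on the 12 pan-epithelial markers, 4 genes met it (Lgr5, Ephb2, Znrf3 and Prom1; 10.7% and 13% of all named probe sets as higher) and the median was 0.49 and 0.57. Centring on the epithelial markers moved the median of all named probe sets from -0.04 to 0.11. Set against that overall median, the median of the 10 genes was higher by 0.46 as deposited, a value that centring leaves as it is by construction, and by 0.24 with quantile normalization applied again. Set against the probe sets whose mean log2 was 5 or more, it was higher by 0.28. Lgr5, Smoc2, Prom1, Znrf3, Sox9 and Ephb2 were on the higher side in each of these 4 scalings.

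**Figure D3:**
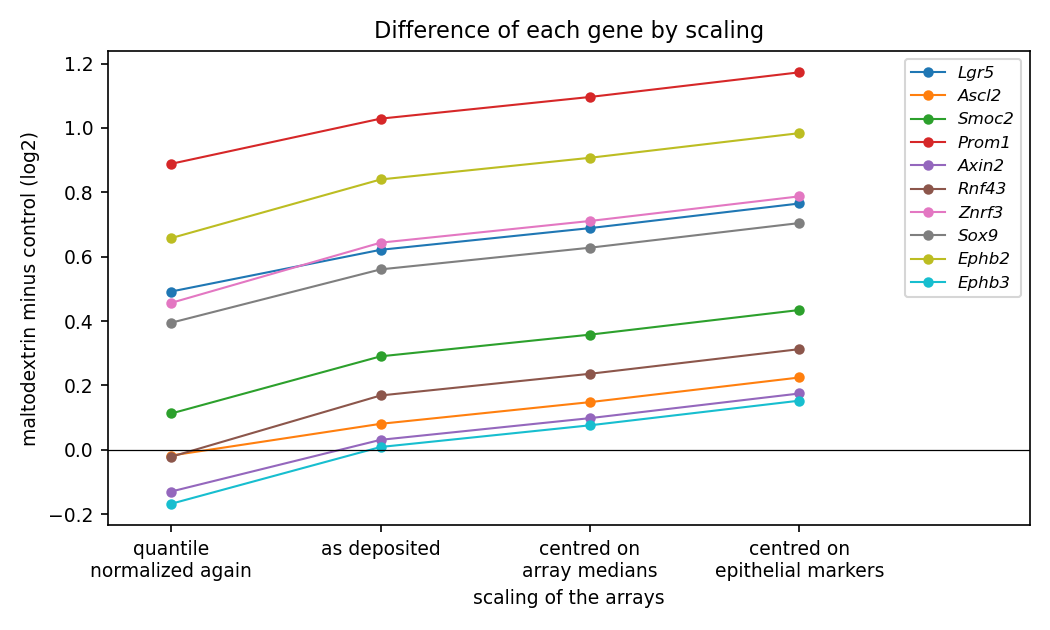
The plot of differences by scaling joins, for each of the 10 genes, the maltodextrin minus control difference in log2 units under 4 scalings of the arrays. Prom1 and Ephb2 stay highest, and 4 genes are below 0 with quantile normalization applied again.

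The rest of the pathway was read from 8 lists of 109 genes, 108 of them measured. Of these, 10 met the nominal criterion as higher, 1 as lower and 97 in neither direction, so that 9.26% were higher against the background of 8.51%. In a fit of the probe sets whose mean log2 was 5 or more alone, 9 of 89 genes were higher at the criterion, 10.1% against 14% of all such probe sets. With 1 array left out, the lowest differences of Efna4, Fzd8 and Wnt2b, 3 of the 10 higher genes, were 0.96, 1.04 and 1.55. These 3 were picked from genes already at the criterion on the same arrays, and all named probe sets were not compared in this way. The median over the 108 genes was 0.16, with 72 above 0, against 46% of all named probe sets. Of the 89 genes whose mean log2 was 5 or more, 65 were above 0, against 62.3% of such probe sets.

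Among the 13 measured crypt base genes, 2 were higher at the nominal criterion and none lower, with a median of 0.27. Cdk6, a cell cycle kinase, was 7.76 and 8.13 on the controls and 8.85 and 8.63 on the maltodextrin arrays, a difference of 0.80. Slc12a2, a sodium, potassium and chloride cotransporter, was higher by 0.73. Tnfrsf19, the TROY receptor of the TNF receptor family, had a difference of 0.60 (0.25 without maltodextrin 3 and 0.94 without maltodextrin 4) and did not meet the criterion.

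Of 15 other Wnt targets 2 were higher and none lower, with a median of 0.15. Id2, an inhibitor of basic helix-loop-helix factors, was higher by 1.03, and Ccnd1, cyclin D1, by 0.80 (0.51 without maltodextrin 3). Cd44, a hyaluronan receptor, had a difference of 0.81 (0.41 without maltodextrin 3), with 8.39 on maltodextrin 3 against 7.59 on maltodextrin 4, and did not meet the criterion.

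The largest difference among the 108 genes was that of a ligand. Wnt2b, a Wnt ligand expressed in gut mesenchyme, read 6.77 on control 1, 6.92 on control 2, 8.39 on maltodextrin 3 and 8.58 on maltodextrin 4. The arrays of each group were close together and the groups far apart. The difference of 1.64 (SE 0.18, 3.12-fold, limma adjusted p = 0.210) was 1.55 to 1.73 with 1 array left out and 1.48 with quantile normalization applied again. Wnt5a, a ligand of the beta-catenin-independent branch, was higher by 0.65, with 5.28 and 5.61 against 6.18 and 6.01. Of 19 ligands 10 lay below the receptor level, among them Wnt10b, named after its values were seen as the 1 gene lower at the criterion (-0.69). Wnt4 had a difference of 0.45 with overlapping groups (0.14 without control 1), and the ligands had a median of -0.02. None of the 4 R-spondins, the secreted partners of the Lgr receptors, met the criterion: Rspo3 had a difference of 0.29 (0.12 without maltodextrin 3 and 0.45 without maltodextrin 4), Rspo2 of 0.12 and Rspo1 of -0.08. With 1 array left out Rspo2 lay between -0.07 and 0.31 and Rspo1 between -0.32 and 0.16.

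Wnt receptors had a median of 0.45 over 17 genes, 2 of them higher at the nominal criterion and none lower. Fzd8, a Frizzled receptor, was 6.47 and 6.21 on the controls and 7.88 and 7.38 on the maltodextrin arrays, a difference of 1.29 (SE 0.25, limma adjusted p = 0.245). Fzd6 was higher by 0.73, or 0.46 without control 1 and then short of the criterion, and the receptor tyrosine kinase-like gene Ror1 had a difference of 0.60 (0.37 without maltodextrin 4). Of 19 signal transduction genes (median 0.26) 1 was higher and none lower: Btrc, the beta-TrCP subunit that marks phosphorylated beta-catenin for degradation, by 1.02. Porcn, the acyltransferase of Wnt ligands, had a difference of 0.53 (0.32 without control 2) and Pygo1, a beta-catenin coactivator, of 0.50 (0.18 without control 1 and 0.82 without control 2).

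None of 10 secreted Wnt antagonists met the criterion (median 0.15). Sfrp1 had a difference of 0.58 (0.36 without maltodextrin 4) and Dkk3 of 0.44. Dkk1 had a difference of -0.44 (-0.27 without control 1 and -0.61 without control 2). Among 11 ephrins and other EphB receptors (median 0.06), 1 was higher. Efna4, an ephrin-A ligand, was 5.54 and 5.34 on the controls and 6.62 and 6.40 on the maltodextrin arrays, a difference of 1.07. Efnb2, an ephrin-B ligand that EphB receptors bind, was 8.96 and 9.50 against 8.77 and 8.67, with the groups apart. Its difference of -0.51 (-0.78 without control 1 and -0.24 without control 2) did not meet the criterion as deposited. With quantile normalization applied again it was -0.68 and met the criterion as lower. Ephb4 had a difference of 0.50.

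**Figure D4:**
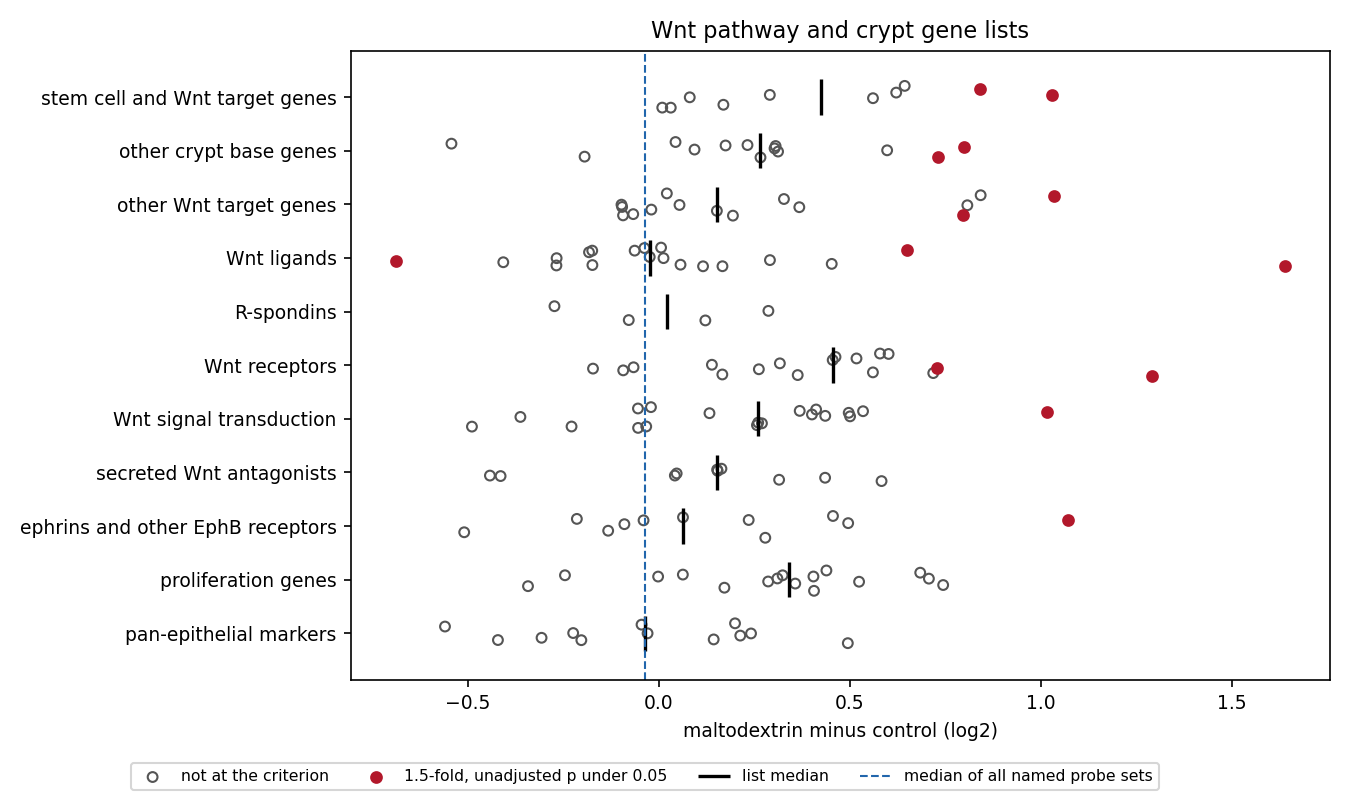
The plot of pathway lists shows the maltodextrin minus control difference in log2 units of each measured gene as a point, 1 row for each list, with filled points at the nominal criterion, black bars at list medians and a dashed line at the median of all named probe sets (-0.04). Wnt2b at 1.64 is the farthest point to the right, and the 12 pan-epithelial markers centre on -0.04.

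Markers of the cell types of the colon wall differed between the groups in some lists. The pan-epithelial markers had a median difference of -0.04, with 5 of 12 above 0 and 0 at the nominal criterion. They ranged from -0.56 (Krt20) to 0.49 (Cdx2). Both maltodextrin arrays lay below both controls in 4 of the 12 and above in 1. Such shares were 16.2% and 39.9% of named probe sets whose mean log2 was 5 or more. Summed linear intensities of the 12 were 36330 and 32390 on the controls and 35180 and 30940 on the maltodextrin arrays. Crypt mesenchyme markers had a median of 0.26 (2 of 10 higher at the criterion, sums of 7072 and 7259 against 9104 and 9388, none of the 10 below the receptor level). Smooth muscle markers were on the lower side in 8 of 8 genes as deposited, in 7 with arrays centred on the epithelial markers and in 5 without maltodextrin 4 (1 at the criterion, sums of 31710 and 34500 against 28860 and 21880), and B cell markers in 8 of 8, or in 6 without control 1 or without maltodextrin 3 (1 at the criterion, sums of 9152 and 5453 against 3567 and 6641). The part of these markers in the differences of the 10 genes was not tested.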

How the data were processed

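Colon RNA of 2 control and 2 maltodextrin samples was measured on 1 array each. The values deposited by the authors are normalized log2 intensities of 41345 probe sets. The submitters' processing notes name Partek 6.6, while the method of background correction and normalization was not given in the sources used here. Their comparison table (33793 rows) gives a ratio, a signed fold score and p-values for each probe set, per the file headers. Its log2 ratio and the group mean difference computed here were at most 8.68e-05 apart. Symbols are those of that table, and positions are those of the RefSeq table for GRCm38.p6.

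Log2 values of the 32202 probe sets with a symbol entered 1 fit in limma 3.58.1 with R 4.3.3 (lmFit and eBayes, 2 residual degrees of freedom, prior 2.62), two-sided, with Benjamini-Hochberg adjustment over all of them. The step was tested on simulated data. For list genes with several probe sets the one with the highest mean was used. Samples were grouped by title. The 10 genes and the lists were chosen with earlier results of these data known. Named genes were all 10, and in each pathway list up to 3 genes with the largest absolute differences among those with a mean log2 of at least 5. Receptor probe sets used for the background level match 1 place only. The number of arrays limits the precision.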

Additional observations from a re-analysis of the deposited data

How the results depend on the processing

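The probe sets at the nominal criterion numbered 1615 by the methods' t-test and by the authors' deposited fold and p-value, 1394 at a fold of at least 2, and 1288 to 6894 with 1 array left out (1288 without maltodextrin 3, 1949 without maltodextrin 4, 6369 without control 1, 6894 without control 2), against 3887. Of the 10 genes, 1 met it with quantile normalization applied again (6.38% of all named probe sets as higher). With arrays centred on their medians 4 met it (10.7% as higher), and 4 with arrays centred on pan-epithelial markers (13%). At a fold of at least 2 the count was 1 (957 of 32202 named probe sets as higher). It was 0 by the methods' t-test and by the authors' deposited values (1261 of 32202 as higher in each). With 1 array left out Prom1 ranged from 0.63 to 1.43 and Ephb2 from 0.51 to 1.17. With a lone array in a group, that array is assumed to vary like the other group. The median of the 10 differences was 0.23 to 0.44 with 1 array left out. Both maltodextrin arrays were above both controls in 4 genes with quantile normalization applied again. Quantile normalization applied again gave -0.018 for Ascl2, -0.13 for Axin2, -0.17 for Ephb3 and -0.022 for Rnf43. With 1 array left out Axin2 ranged from -0.30 to 0.37 and Ephb3 from -0.086 to 0.10. The cause of these shifts was not tested. The mean log2 filter, all rows of the value table, trend and robust settings and averaged probe sets, and probe sets that match 1 place only (added after the data were seen), moved neither the counts at the criterion nor the median of the 10 genes by over 1.5 times, although the excess of that median over all probe sets, 0.46, was 0.28 with the mean log2 filter, where 14% of probe sets met the criterion as higher against 8.51%. The 10 other pathway genes higher at the criterion were 9.26% of the 108 measured. By the methods' t-test they were 3 (2.78%, against 1261 of 32202 named probe sets as higher). At a fold of at least 2 they were 5 (4.63%, against 957 of 32202). With arrays centred on pan-epithelial markers they were 19 (17.6%, against 13% of all named probe sets). No paired analysis was possible because the sample numbers run as 1 series through both groups and share none.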

Other observations

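Kit and Bmp4, listed here as markers of cells next to the crypt base, differed most in lists whose other members varied. Of 6 Paneth and deep crypt secretory markers, 2 were higher at the nominal criterion (Kit, and Agr2 by 0.63) and 4 lay above 0, while Lyz1 had a difference of -0.43 and the groups overlapped for Mmp7 and Spink4. Kit is a receptor tyrosine kinase listed here as a marker of deep crypt secretory cells. It read 7.31 and 7.53 on the controls and 9.38 and 8.91 on the maltodextrin arrays. The difference was 1.72 (SE 0.24, limma adjusted p = 0.229). The RNA was of whole colon, and which cells gave the Kit signal was not tested. Bmp4, a ligand of the crypt mesenchyme that opposes Wnt signalling, read 8.08 and 8.54 against 10.07 and 9.85, a difference of 1.64 (SE 0.24, limma adjusted p = 0.232), or 1.42 to 1.87 with 1 array left out. Lum, a matrix proteoglycan of fibroblasts, was higher by 0.91 at the nominal criterion. These were the 2 of 10 crypt mesenchyme markers at the criterion. Another 4 of the 10 were below 0 as deposited, Col1a1 (-0.85), Grem1 (-0.53), Col1a2 (-0.44) and Foxl1 (-0.02), and none of these met it.

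Reg4, a secreted lectin of deep crypt secretory cells, split the maltodextrin arrays. It read 12.67 and 12.68 on the controls, 8.76 on maltodextrin 3 and 13.52 on maltodextrin 4, so that its mean difference of -1.54 (SE 1.57) describes neither array.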
